A study of Mus musculus with 20 samples.

Results

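Among the transcripts measured in mouse liver after interleukin-1β, 10 genes were followed: Tnfaip3 (A20), Tnip1, Cyld, Birc2, Birc3, Traf1, Traf2, Traf3 and Traf6, which regulate or carry ubiquitin signaling downstream of cytokine receptors, and Tnfaip2, which was listed with them. They were taken by gene symbol, each symbol matching 1 row of the 37681 genes listed in every table, and all 10 were among the 15578 genes tested. The RNA came from whole liver of 10 male C57/B6J mice aged 12 weeks. Of these, 5 received IL-1β (20 µg/kg; ILB_9577, ILB_9578, ILB_9579, ILB_9582 and ILB_9583) and 5 received saline (hereafter untreated; UNT_9574, UNT_9575, UNT_9576, UNT_9580 and UNT_9584), all by intraperitoneal injection 4 hours before collection. Every mouse contributed 1 Illumina and 1 Ion Torrent library made from its RNA. Counts exist for 3 alignments of each library, by GSNAP, by STAR, and by STAR with Bowtie2 for what STAR left unmapped, so there are 6 tables of whole-number counts. Counts are called reads here, since the tables do not state whether an Illumina count is a read or a pair. The Illumina STAR table was the main one, and the other 5 were used to check it.

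When the IL-1 receptor or a TNF receptor is engaged, TRAF proteins and the cIAP ligases build ubiquitin chains on signaling proteins, and these chains recruit the kinases that release NF-κB. A20 and CYLD take chains apart or replace them, and TNIP1 (ABIN1) brings A20 to its substrates, so that the signal is shut off again. Several of these brakes are themselves textbook NF-κB targets, A20 above all. Tnfaip2, named for its induction by TNF like A20, is not part of the ubiquitin machinery.

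The promoters of the 5 members that rose in all 6 tables are shown, a choice made after seeing the data. Of these 5, Tnfaip3 and Tnip1 held a match to the κB consensus, the sequence pattern bound by NF-κB. Each line gives the 150 bases before the outermost RefSeq start, in the direction of transcription, and capitals mark the matched bases. The RefSeq table is on GRCm38.p6, and each stretch matched mm9 at 1 place, all on the minus strand: chr10:18735217-18735366 for Tnfaip3, chr11:54776443-54776592 for Tnip1, chr9:7837058-7837207 for Birc2, chr9:7873171-7873320 for Birc3 and chr2:25402461-25402610 for Traf2.
Tnfaip3: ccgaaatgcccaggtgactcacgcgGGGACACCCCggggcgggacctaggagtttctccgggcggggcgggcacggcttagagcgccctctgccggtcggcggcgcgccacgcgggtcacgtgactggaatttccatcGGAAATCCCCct
Tnip1: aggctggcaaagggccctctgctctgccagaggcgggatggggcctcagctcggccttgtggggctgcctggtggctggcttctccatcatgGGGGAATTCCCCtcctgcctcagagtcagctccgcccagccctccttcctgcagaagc
Birc2: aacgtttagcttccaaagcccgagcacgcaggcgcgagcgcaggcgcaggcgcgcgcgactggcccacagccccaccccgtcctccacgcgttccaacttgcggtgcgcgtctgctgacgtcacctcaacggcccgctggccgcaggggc
Birc3: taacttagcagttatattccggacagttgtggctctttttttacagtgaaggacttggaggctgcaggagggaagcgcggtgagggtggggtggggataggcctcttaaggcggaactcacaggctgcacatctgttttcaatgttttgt
Traf2: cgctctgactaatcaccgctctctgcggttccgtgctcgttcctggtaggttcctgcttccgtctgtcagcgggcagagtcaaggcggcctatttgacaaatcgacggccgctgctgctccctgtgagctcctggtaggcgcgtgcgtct
The Tnfaip3 stretch held GGGACACCCC beginning 125 bases before the start and GGAAATCCCC beginning 12 bases before it. In Tnip1, 3 overlapping matches, such as GGGAATTCCC, began 58, 57 and 56 bases before the start. Both strands were searched in windows of 300 bases (250 before and 50 after a start), and 4.51% of the 32851 RefSeq windows held at least 1 match. Among the other members, Traf3 had GGGGATTTCC beginning 10 bases before its start and Cyld had GGAAAGTCCC beginning 155 bases before it. Of the 6 tables, Traf3 was called higher in 1 and Cyld in 3. No match was found in the windows of Birc2, Birc3, Traf1, Traf2, Traf6 and Tnfaip2, nor at a downstream start of Tnfaip3. The RefSeq start of Birc2 lies outside the Ensembl gene used for its counts. Those of Tnfaip3 and Birc3 lie 247 and 16 bases inside their Ensembl genes. The whole printed Tnfaip3 stretch, with both of its matches, thus falls downstream of the Ensembl gene start. A match describes letters only, binding was not measured, and a link between matches and fold changes was not tested.

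Total counts per library were 10568530 to 11046256 in the Illumina STAR table and reached 16439683 in the Ion Torrent STAR + Bowtie2 table. Levels are given as CPM, counts relative to the library size after its TMM correction. Over the 11929 genes averaging at least 10 reads, the median log2 fold change was -0.12 uncorrected and 0.0047 corrected, so all fold changes stand relative to that shift. The 6 hepatocyte markers, Alb among them, were the most abundant list and summed to 64542 to 77320 CPM in treated and 90824 to 110587 in untreated mice (0 higher, 4 lower). Of the 10 neutrophil markers, 6 were higher with treatment, 0 were lower and 4 were not tested, and their sum was 45.6 to 105 CPM in treated against 0.888 to 3.16 in untreated mice. Within that list, Ly6g, Mpo and Camp averaged at most 2.2 reads in treated mice and had 0 reads in untreated mice. Of the 8 Kupffer cell and macrophage markers, 3 were lower and 1, Marco, was higher, with sums of 73.9 to 172 in treated and 133 to 232 in untreated mice. Sums were 89.6 to 146 against 115 to 174 for the 6 sinusoidal endothelial markers (2 higher, 2 lower), 58.2 to 94.5 against 100.0 to 141 for the 5 stellate cell markers (0 higher, 3 lower) and 1.21 to 3.67 against 3.73 to 6.49 for the 10 lymphocyte markers (0 higher, 2 lower, 4 not tested). In bulk tissue, a change in the number of cells of a type and a change in RNA per cell cannot be told apart, and the part of these shifts in the members' values was not tested.

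In the Illumina STAR table, 6 of the 10 members were higher after IL-1β and 0 were lower (edgeR's quasi-likelihood test, Benjamini-Hochberg adjusted p below 0.05 over all genes tested), where 22.7% of all tested genes were called higher and 22.9% lower. The 6 were Tnfaip3, Tnip1, Birc2, Birc3, Traf2 and Traf3. In CPM, 5 members had every treated mouse above every untreated mouse, a pattern shown by 17.6% of tested genes. The median log2 fold change of the members was 0.52, against 0 over all tested genes. The members were chosen with earlier results of these data known, so the counts and shares are a description only. In the other tables, 5 members were called higher with Illumina GSNAP (23.7% of all tested genes), 5 with Illumina STAR + Bowtie2 (22.9%), and 6 each with Ion Torrent STAR (20.3%), Ion Torrent GSNAP (22.5%) and Ion Torrent STAR + Bowtie2 (22.8%), with 0 lower in each. For these other tables the share of all tested genes called lower is not given here. The 5 called higher in all 6 tables were Tnfaip3, Tnip1, Birc2, Birc3 and Traf2, and each kept its call in every table when any single mouse was left out. Cyld and Traf3 were called in some tables, and Traf1, Traf6 and Tnfaip2 in none. No member passed the threshold downward in any table.

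**Figure D1:**
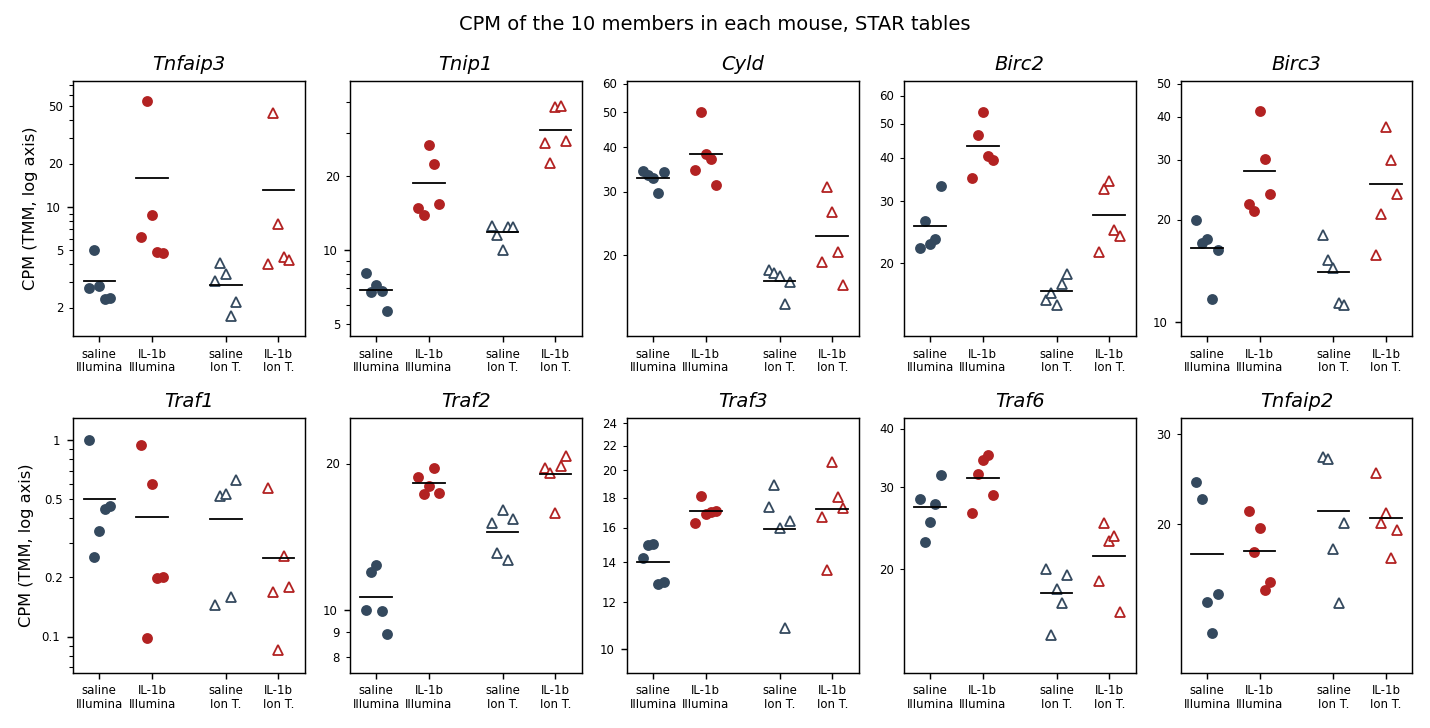
CPM (TMM scaling, log axis) of the 10 members in each mouse, in the Illumina STAR table (filled circles) and the Ion Torrent STAR table (open triangles), with untreated mice in grey and treated mice in red; bars are means of 5 mice. In the Tnfaip3 panel 1 treated mouse stands at 54.9 (Illumina) and 44.8 (Ion Torrent), far above the others, while the Tnip1 and Birc2 groups do not overlap on either platform.

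Tnfaip3, on chromosome 10 at 18720716 to 18735463 (mm9, minus strand), encodes A20. Its Illumina STAR counts were 65, 557, 89, 49 and 48 reads in treated mice ILB_9577, ILB_9578, ILB_9579, ILB_9582 and ILB_9583, and 33, 59, 33, 26 and 25 reads in untreated mice UNT_9574, UNT_9575, UNT_9576, UNT_9580 and UNT_9584. Mouse ILB_9578 stood apart from all other mice, and 2 of the other treated mice lay below the highest untreated mouse, UNT_9575. The fitted log2 fold change was 2.38 ± 0.64 (SE, n = 5 and 5 mice, edgeR adjusted p = 0.0067), and the groups averaged 15.9 ± 21.9 and 3.05 ± 1.13 CPM (SD). Mouse ILB_9578 alone gave 68.9% of the Tnfaip3 reads of the treated group. With all mice, limma-voom did not call Tnfaip3 (adjusted p = 0.089), Mann-Whitney tests on reads and on TMM-scaled CPM did not either (adjusted p = 0.081 in both), and DESeq2 gave it no adjusted p. Without that mouse the log2 fold change was 1.01 ± 0.26 (SE, edgeR adjusted p = 0.0057), and the other 4 treated mice averaged 6.17 ± 1.88 CPM (SD), which was 2.03 times the untreated mean.

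Mouse ILB_9578 stood apart in the second library of its RNA as well. With Ion Torrent STAR, the treated mice had 50, 531, 89, 53 and 48 Tnfaip3 reads and the untreated mice 42, 55, 45, 22 and 28. The ratio of mouse ILB_9578 to the next mouse, which was ILB_9579 in every table, lay between 5.87 and 6.31 over the 6 tables. A single RNA sample stood behind both libraries, so the height of this value was repeated by a second library preparation and not by a second animal. Across the 6 tables the log2 fold change of Tnfaip3 was 2.16 to 2.40 with all mice. Without mouse ILB_9578 it was 1.01, 1.12 and 1.03 with Illumina STAR, GSNAP and STAR + Bowtie2, and 0.84, 1.07 and 1.04 with Ion Torrent STAR, GSNAP and STAR + Bowtie2, and it remained past the threshold in all 6 (edgeR adjusted p at most 0.0191). A search of all tested genes for those at least 3 times higher in mouse ILB_9578 than in any other mouse on both platforms, with at least 50 reads there, returned 1 gene, Tnfaip3 itself. The same search returned 0 to 4 genes for each of the other mice. The neutrophil marker sum was also highest in mouse ILB_9578, at 105 CPM with Illumina STAR and 145 with Ion Torrent STAR. Mouse ILB_9582 came next, at 96.6 and 105, with 4.86 and 4.52 CPM of Tnfaip3. The hepatocyte marker sum of mouse ILB_9578 was the lowest of all mice on both platforms, at 64542 CPM with Illumina STAR and 74920 with Ion Torrent STAR. The part of neutrophil RNA, or of any other shift in these markers, in the Tnfaip3 values was not tested.

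Tnip1 (chromosome 11 at 54724289 to 54776419, minus strand), the adaptor that ties A20 to ubiquitin chains, rose without any such outlying mouse. Its counts were 157, 141, 271, 225 and 153 reads in the treated and 97, 79, 84, 77 and 61 in the untreated mice, in the mouse order given for Tnfaip3. Every treated mouse lay above every untreated one in all 6 tables. The log2 fold change was 1.43 ± 0.19 (SE, edgeR adjusted p = 1.9e-05), from 6.90 ± 0.87 to 18.7 ± 5.67 CPM (SD, n = 5 each), and it was 1.34 to 1.43 over the 6 tables. Mouse ILB_9578, the highest for Tnfaip3, was the lowest treated mouse for Tnip1 on both platforms, at 13.9 CPM with Illumina STAR and 22.7 with Ion Torrent STAR. Mouse ILB_9579 was the highest for Tnip1 with Illumina STAR, at 26.9.

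Birc2 and Birc3, which encode the ligases cIAP1 and cIAP2, are neighbors on the minus strand of chromosome 9, at 7818236 to 7835255 and 7848699 to 7873186, with 13443 bases between them. Birc2 had 368, 470, 544, 409 and 392 reads in treated and 266, 309, 264, 264 and 357 in untreated mice, with no overlap between the groups. Its log2 fold change was 0.75 ± 0.14 (SE, edgeR adjusted p = 0.00042), and it was 0.71 to 0.80 over the 6 tables. Birc3 had 235, 215, 418, 303 and 236 reads in treated and 239, 201, 204, 132 and 176 in untreated mice. Raw Birc3 reads overlapped, while in CPM the lowest treated mouse, ILB_9578 at 21.2, lay just above the highest untreated mouse, UNT_9574 at 19.9. Its log2 fold change was 0.75 ± 0.19 (SE, edgeR adjusted p = 0.0039), 0.69 to 0.86 over the 6 tables, and the Birc3 groups overlapped in all 3 Ion Torrent tables. Mouse ILB_9579 was highest for both cIAP genes on both platforms. By BLAST the Birc2 and Birc3 transcripts were 76.3% identical over 1344 bases, and how the aligners treated reads from shared stretches was not examined here. A Mann-Whitney test called Birc3 on TMM-scaled CPM (adjusted p = 0.036) and not on unscaled reads (adjusted p = 0.12).

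Cyld, on the plus strand of chromosome 8 at 91220927 to 91275844, encodes the deubiquitinase that opposes the TRAFs. With Illumina STAR it had 364, 507, 386, 374 and 312 reads in treated and 412, 392, 383, 335 and 368 in untreated mice, and the groups overlapped. The log2 fold change was 0.22 ± 0.12 (SE, edgeR adjusted p = 0.15), and Cyld was called in 0 of the 3 Illumina tables. In all 3 Ion Torrent tables it was called higher, with log2 fold changes of 0.40 to 0.42 (edgeR adjusted p between 0.027 and 0.040). The Ion Torrent STAR counts were 236, 367, 309, 239 and 186 in treated and 251, 240, 230, 184 and 215 in untreated mice. Mouse ILB_9578 was again the highest, and without it the log2 fold change was 0.30, 0.28 and 0.27 in the Ion Torrent STAR, GSNAP and STAR + Bowtie2 tables, no longer past the threshold (edgeR adjusted p = 0.090, 0.064 and 0.11). The Cyld call was also lost in all 3 Ion Torrent tables without mouse ILB_9579, UNT_9576 or UNT_9580, in 2 of them without UNT_9575 or UNT_9584, and in 1 without UNT_9574. Its edgeR adjusted p over the 10 leave-outs of an Ion Torrent table reached at most 0.11.

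The 4 TRAF members differed among themselves. Traf2, the adaptor that brings cIAPs to TNF receptors (chromosome 2 at 25373502 to 25402460, minus strand), had 198, 176, 181, 198 and 173 reads in treated and 120, 141, 144, 112 and 96 in untreated mice. The treated mice were close together and all above the untreated, 18.2 ± 0.97 against 10.6 ± 1.47 CPM (SD, n = 5 each). The Traf2 log2 fold change was 0.77 ± 0.12 (SE, edgeR adjusted p = 7.8e-05) with Illumina STAR and 0.68 to 0.77 over the Illumina tables. It was lower, 0.39 to 0.45, over the Ion Torrent tables, where it was still called (edgeR adjusted p at most 0.015). The Ion Torrent STAR counts were 242, 227, 186, 232 and 233 in treated and 208, 177, 212, 160 and 196 in untreated mice, and there the groups overlapped.

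Traf3, which restrains the NF-κB-inducing kinase (chromosome 12 at 112404581 to 112505364, plus strand), was called in 1 of 6 tables. Its raw Illumina STAR counts were nearly level, with 172, 184, 170, 172 and 170 reads in treated and 171, 176, 175, 145 and 140 in untreated mice. After TMM scaling the treated mice lay above the untreated, with a log2 fold change of 0.29 ± 0.10 (SE, edgeR adjusted p = 0.031). Without scaling it was 0.15 in that table (edgeR adjusted p = 0.28), and with Ion Torrent STAR it was then -0.0094. The Traf3 call was lost without any of mice UNT_9574, ILB_9578, ILB_9579, UNT_9580, ILB_9582 and ILB_9583, for which the log2 fold change was at least 0.26 and the edgeR adjusted p reached at most 0.068. In the other 5 tables Traf3 had log2 fold changes of 0.12 to 0.24 (edgeR adjusted p between 0.072 and 0.59).

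Traf6 (chromosome 2 at 101518586 to 101541826, plus strand), the ligase closest to the IL-1 receptor, had 279 to 354 reads in treated and 269 to 342 in untreated mice. The groups overlapped in all 6 tables, and the log2 fold change with Illumina STAR was 0.21, with a 95% interval of -0.039 to 0.45. Without treated mouse ILB_9583, Traf6 passed the threshold in the Ion Torrent STAR table (log2 fold change 0.36, edgeR adjusted p = 0.038) and in the Ion Torrent GSNAP table (0.37, edgeR adjusted p = 0.034). Traf1 (chromosome 2 at 34797270 to 34817292, minus strand), an adaptor mostly known from lymphoid cells, was barely detected: 1 to 10 reads in treated and 3 to 12 in untreated mice. Its log2 fold change of -0.28 had a 95% interval of -1.45 to 0.88, so a change was not detectable at this depth. Tnfaip2 (chromosome 12 at 112680680 to 112693229, plus strand) had 224, 179, 198, 150 and 153 reads in treated and 291, 263, 164, 138 and 157 in untreated mice. The Tnfaip2 groups overlapped fully, and the log2 fold change was 0.02, with a 95% interval of -0.37 to 0.41, or -0.12 without scaling.

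**Figure D2:**
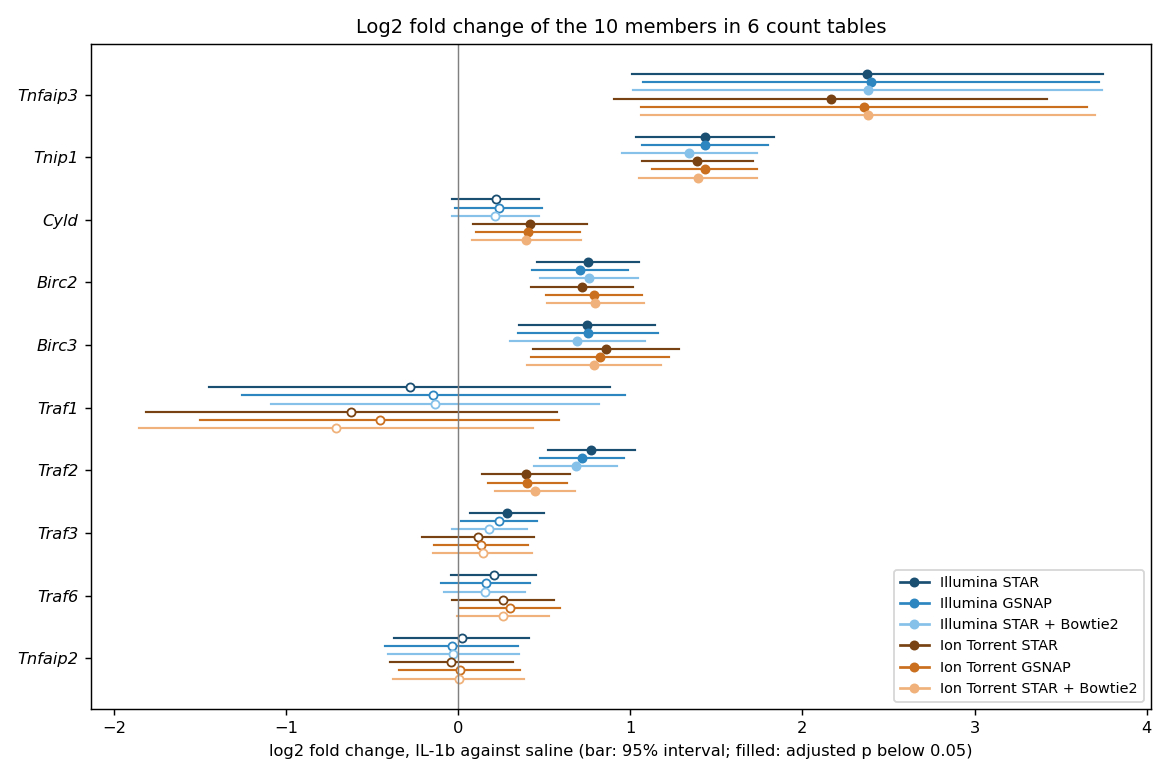
Log2 fold change of the 10 members, treated against untreated, in each of the 6 tables, with 95% intervals from edgeR's quasi-likelihood fit and filled points at an adjusted p below 0.05 (Illumina tables in blue, Ion Torrent tables in brown). Tnfaip3 has the largest fold changes and wide intervals (1.01 to 3.74 with Illumina STAR), while Tnip1 sits at 1.34 to 1.43 with narrower ones.

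Whether IL-1β moved a member differently on the platforms was tested with a platform-by-treatment term, fitted to the 20 STAR libraries with the mouse as a block. With edgeR 0 of the 10 members passed an adjusted p below 0.05, and 0.00642% of all tested genes did. Traf2 was the 1 member with an unadjusted p under 0.05: its log2 fold change was lower on Ion Torrent by an estimated difference of -0.37 ± 0.14 (SE, edgeR adjusted p = 0.68, unadjusted p = 0.012). For Cyld the difference was 0.20, with a 95% interval of -0.015 to 0.42 (edgeR adjusted p = 0.70), so its calls on 1 platform were not shown to differ between platforms. DESeq2 and limma-voom also called 0 members, and with limma-voom 2 members had an unadjusted p under 0.05.

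**Figure D3:**
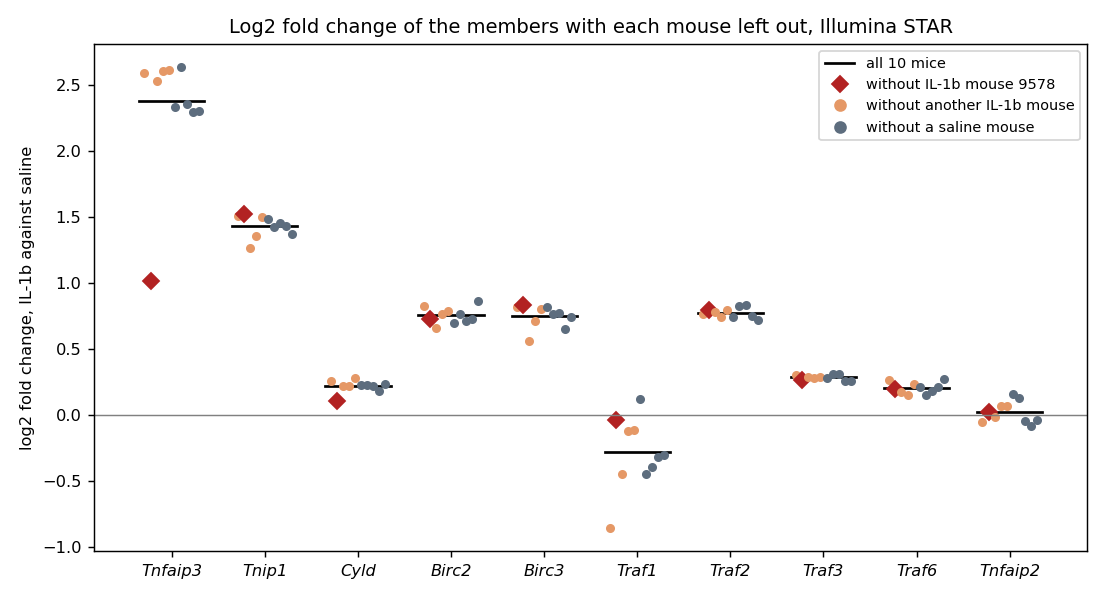
Log2 fold change of each member in the Illumina STAR table with all 10 mice (black bars) and with each mouse left out (points; the diamond leaves out treated mouse ILB_9578). Tnfaip3 falls from 2.38 to 1.01 without that mouse, while Tnip1 stays between 1.26 and 1.52 and Traf2 between 0.72 and 0.83 whichever mouse is left out.

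Levels were compared between genes per kilobase of exon, as CPM per kb in the untreated mice with Illumina STAR, with exon lengths from another Ensembl release than the counts. Birc2 was highest at 8.16 ± 1.45 (SD, n = 5), with no mouse overlapping the next gene. Cyld (4.08), Tnfaip2 (3.51), Traf6 (3.45) and Birc3 (3.30) came next, each overlapping the gene after it, so that Birc3 overlapped Traf2. Traf2 (2.09), Tnip1 (1.95) and Traf3 (1.89) followed, also overlapping, then Tnfaip3 at 0.42 ± 0.16 and Traf1 at 0.099 ± 0.057, both below every mouse of the genes above them. In treated mice Tnip1 stood at 5.28 ± 1.60, near Birc3 at 5.54 ± 1.68, and Birc2 at 13.8 ± 2.35. Transcripts of A20 were scarce in untreated liver, at 25 to 59 reads per mouse with Illumina STAR. The order above is that of Illumina STAR and did not hold on the other platform. Untreated Cyld averaged 32.9 CPM and Tnip1 6.90 with Illumina STAR, against 17.0 and 11.8 with Ion Torrent STAR. Per kb of exon (8.07 kb for Cyld, 3.54 kb for Tnip1), Tnip1 thus lay above Cyld with Ion Torrent STAR. There the untreated per-kb ranges of Birc2 and Tnfaip2 also overlapped.

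The genes whose mouse-to-mouse pattern was most like that of Tnfaip3 were sought by Pearson's correlation of deviations from the treatment mean over the 10 mice, among 7810 genes with a mean of at least 100 reads in the Illumina STAR table. The 3 highest were Scfd2 (r = 0.92), Gpr116 (r = 0.91) and Ick (r = 0.91), with 0.66, 0.66 and 0.45 in the Ion Torrent STAR table. These values share mouse ILB_9578: without it they were 0.52, 0.75 and 0.56 with Illumina and 0.54, 0.47 and -0.42 with Ion Torrent. Scfd2 had 254 reads in that mouse and at most 156 in any other. As the 3 genes were picked as the highest of 7810 over 10 mice, the size of r alone shows no link to Tnfaip3. No test was made, and both platforms drew on the same RNA.

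Beyond the members, 41 other genes of the pathway were counted, of which 40 were tested and Tnip3 was not. With Illumina STAR, 14 were higher and 6 lower, where 22.7% and 22.9% of all tested genes were, and their median log2 fold change was 0.21. This list was chosen with earlier results of these data known, so the counts and shares are a description only. Among the A20 partners 2 of 5 were higher, Tnip2 (log2 fold change 1.36) and Rnf11 (0.37), and 0 were lower. Of the LUBAC ligase, which makes linear ubiquitin chains, and Fam105b (OTULIN), which cleaves them, 3 of 4 genes were higher, namely Sharpin (0.71), Fam105b (0.52) and Rnf31 (0.33). In this group 3 were also higher with Illumina GSNAP, but 2 with Illumina STAR + Bowtie2 and in each Ion Torrent table. Spata2 (0.57), a CYLD partner, was the 1 of 5 other deubiquitinases and adaptors that was higher. It was called in all 3 Illumina tables and in 0 of the 3 Ion Torrent tables (edgeR adjusted p between 0.14 and 0.23).

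The widest spread was among TRAFs, their partners and the kinases they feed. Tifa, which activates TRAF6 by oligomerizing, had 3847, 7337, 7590, 5428 and 4498 reads in treated and 227, 139, 90, 273 and 201 in untreated mice. These groups were far apart, and the log2 fold change was 5.12 ± 0.30 (SE, edgeR adjusted p = 7.0e-09). Ikbke, an IκB kinase relative, rose by 3.30 ± 0.20 on the log2 scale (SE, edgeR adjusted p = 1.1e-08), from 173 to 402 reads in untreated to 1700 to 2902 in treated mice. Map3k14, the NF-κB-inducing kinase that TRAF3 and the cIAPs hold down, went from 24 to 53 reads to 140 to 179 (log2 fold change 2.08 ± 0.17, SE, edgeR adjusted p = 2.4e-07). Of the 12 kinases and adaptors 6 were higher and 1, Tradd (-0.75), was lower.

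Members of the ligase and TRAF families also fell. Traf5 had 24, 11, 11, 6 and 12 reads in treated and 20, 44, 38, 33 and 29 in untreated mice, overlapping only through mouse ILB_9577 (log2 fold change -1.18 ± 0.31, SE, edgeR adjusted p = 0.0056). Peli2, a Pellino ligase, went from 264 to 302 reads down to 120 to 152 (-0.85 ± 0.10, SE, edgeR adjusted p = 6.8e-06). Xiap, a relative of the cIAPs that binds caspases, went from 1416 to 1781 reads down to 674 to 1010 (-0.83 ± 0.12, SE, edgeR adjusted p = 4.2e-05), opposite in sign to Birc2 and Birc3. Of the 6 other E3 ligases and E2 enzymes 3 were lower, the third being Peli1 (-0.42), and 0 were higher. With Ion Torrent, 1 of these 6 was higher and 2 were lower by STAR, 2 and 3 by GSNAP, and 1 and 3 by STAR + Bowtie2, and Ube2n was higher in all 3 of those tables. The share of all tested genes called lower with Ion Torrent is not given here. Of the 9 other TRAFs and TRAF partners 2 were higher, Tifa and Traf7 (1.13), and 2 lower, Traf5 and Traf4 (-0.53). The 3 highest and 3 lowest named here were called in the same direction in all 6 tables.

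**Figure D4:**
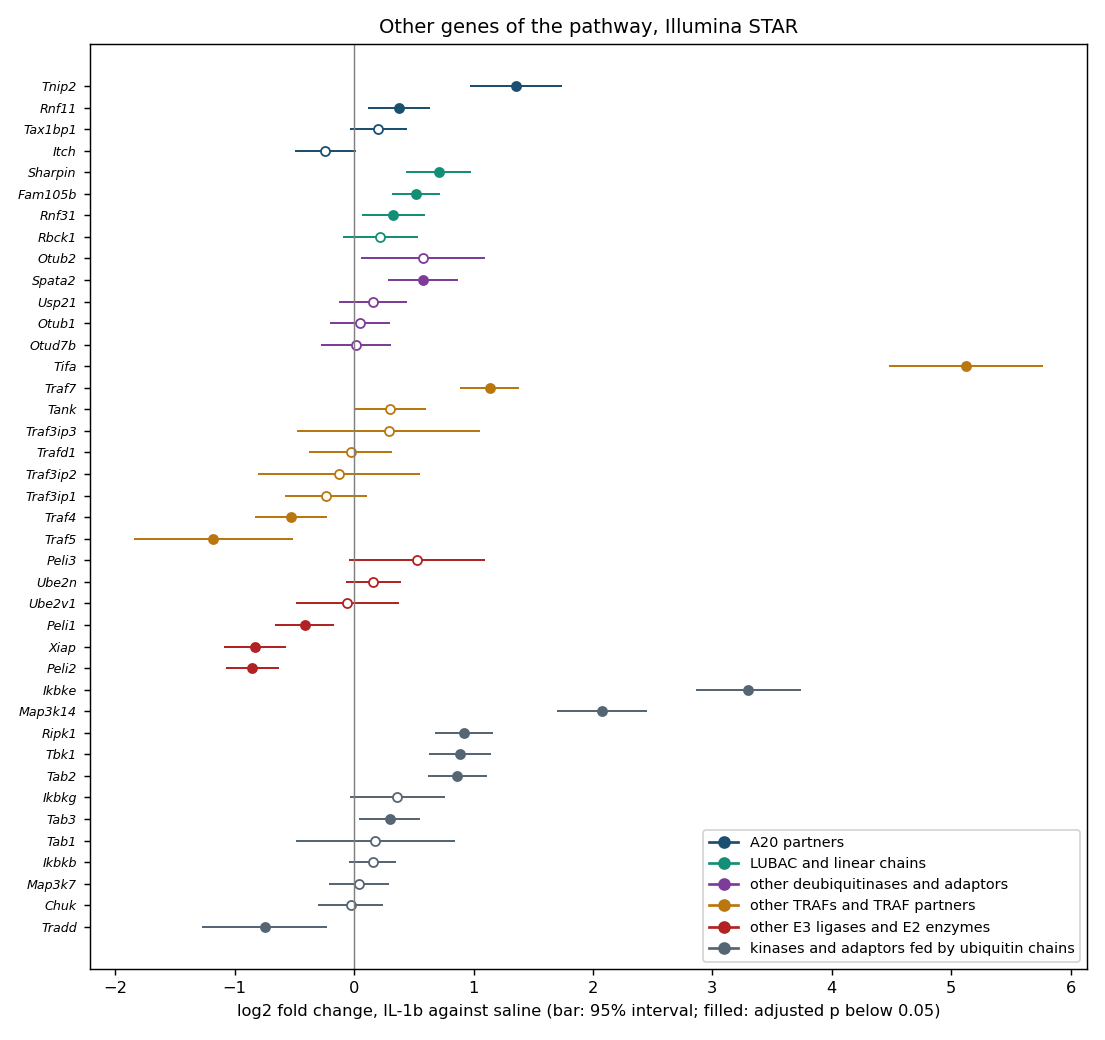
Log2 fold change of the 40 tested other genes of the pathway in the Illumina STAR table, grouped by role, with 95% intervals and filled points at an adjusted p below 0.05. Tifa (5.12) and Ikbke (3.30) stand far to the right, and the filled points on the left are Traf5, Traf4, Peli1, Xiap, Peli2 and Tradd.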

How the data were processed

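Livers of 10 mice were sequenced on 2 platforms. The authors aligned the reads to mm9 with GSNAP, STAR (2.5.1b) or STAR and Bowtie2 (2.2.9), per the submitters' processing notes, then removed rRNA and mitochondrial reads and re-sampled libraries within each table with PORT. The deposited values are counts per gene, all whole numbers. All 60 columns were used, and groups came from the sample titles.

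A gene was tested where any table gave it 5 or more reads in at least 5 libraries. Tests were run within each table with edgeR 4.0.16 (R 4.3.3), using TMM, the quasi-likelihood test and Benjamini-Hochberg adjustment at 0.05. Standard errors are the absolute log2 fold change over the root of F. Tables were normalized separately, so only the platform-by-treatment term compares them. Its block rests on shared RNA: a mouse's deviations from its treatment mean correlated between platforms (STAR) at 0.534 to 0.707 for 9 mice and 0.246 for UNT_9584, over 10543 genes. Alternatives were DESeq2 1.42.0, limma-voom (limma 3.58.1), rank tests, other scaling and filters, and left-out mice. The model fits were also run on simulated counts with known changes. Those counts held no effect shared by both libraries of a mouse, so they did not test the mouse block. Positions and exons are those of GENCODE vM1 on NCBIM37 (mm9), an older Ensembl release than the one the authors counted on, so levels per kb divide counts by lengths of another release; the files' gene ranges extend 250 (Illumina) or 246 bases (Ion Torrent) beyond both ends. Transcripts were compared with blastn 2.17.0. The named genes are all members, the 3 highest and 3 lowest called pathway genes with 1 direction in all tables, genes that give a count of 5 or fewer, and the 3 genes most like Tnfaip3. The members and lists were chosen with earlier results of these data known. The promoter search and the search for genes high in 1 mouse were chosen after seeing the data.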

Additional observations from a re-analysis of the deposited data

Results flagged for a closer look

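Within groups of 5 mice, the gap between the most extreme mouse and its nearest neighbor was divided by the group's range, for each member in both STAR tables. Of 40 groups, 4 passed Dixon's critical value of 0.71. For normally distributed values chance alone flags about 1 group in 20. The groups here share mice and RNA and hold CPM that was not logged, so that rate is only a rough guide.

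For Tnfaip3 the treated mouse ILB_9578 passed on both platforms, with a ratio of 0.92 with Illumina (54.9 CPM, next 8.84) and 0.913 with Ion Torrent (44.8, next 7.59). Untreated mouse UNT_9575 passed for Tnfaip3 with Illumina only, at 0.808 (5.02 CPM, next 2.83). For Traf1, untreated mouse UNT_9574 passed with Illumina at 0.719 (0.999 CPM, next 0.464), which rests on 12 reads.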

How the results depend on the processing

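Of the 6 members called higher in the Illumina STAR table, Tnip1, Birc2 and Traf2 kept their direction and their call under all 14 alternatives tried there other than leaving out mice. A rank test (Mann-Whitney U, normal approximation) on unscaled reads, which changes both the test and the scaling, called 3 members higher and 3 pathway genes lower, in place of 6 and 6, and did not call Tnfaip3, Birc3 and Traf3. The same test on TMM-scaled CPM, chosen after seeing the data, called 5 members higher and 3 pathway genes lower, with Birc3 and Traf3 called (adjusted p = 0.036 for both) and Tnfaip3 not. With 5 mice against 5, a rank test's p-value has a floor whatever the size of the difference. The share of all tested genes called by the rank tests is not given here. Whether the lower counts are particular to the members or the pathway genes is therefore not shown. Tnfaip3 was also not called by limma-voom (log2 fold change 1.66, adjusted p = 0.089), and DESeq2 gave it no adjusted p. A robust edgeR fit, chosen after seeing the data, called Tnfaip3 with an adjusted p of 0.044. Traf3 was called under 6 of 14 alternatives and was not called without scaling, without a filter, by the rank test on unscaled reads or in the other 5 tables. The cause was not tested for any of these.

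Leaving out each mouse in turn gave 5 to 6 members and 11 to 16 pathway genes higher, 0 members and 6 to 7 pathway genes lower in the Illumina STAR table. In the other tables (chosen after seeing the data, except mouse UNT_9584 with Ion Torrent) it gave 5 to 6 members called with Illumina GSNAP, 5 with Illumina STAR + Bowtie2, 5 to 7 with Ion Torrent STAR and with Ion Torrent GSNAP, and 5 to 6 with Ion Torrent STAR + Bowtie2. The share of all tested genes called with a mouse left out is not given here, so these counts have no such share beside them. The platform-by-treatment term called 0 members with the mouse as a block, 0 with no replicate block, and 0 under every other alternative tried. No member's called value changed sign. Traf1 had 1 to 12 reads per mouse with Illumina STAR, which limits what can be detected. Mice are separate animals, but both libraries of a mouse share its RNA.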
